A study of Mus musculus with 27 samples.

Results

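Naïve mouse macrophages were compared with macrophages stimulated for 4 h with Poly(I:C), a synthetic double-stranded RNA and a ligand of Toll-like receptor 3 (TLR3). The comparison holds 6 of the 27 arrays of the series, 3 naïve and 3 acute Poly(I:C), chosen by their sample titles. All cells were bone marrow-derived macrophages (BMDM) of female C57BL/6 mice aged 6 to 8 weeks, grown for 7 days in medium conditioned by L929 cells, a fibroblast line that secretes macrophage colony-stimulating factor. Naïve BMDM received no ligand, and acute BMDM received 10 µg/ml Poly(I:C) once. Cultures of acute CpG, a DNA ligand of TLR9 given for 4 h, were on the same slides (3 arrays) and serve below as the other ligand. The labels give 100 µM CpG and the methods of the study 1 µM. Each array read the Cy3-labelled RNA of 1 culture, and the other groups of the series enter only an alternative fit of all 9 groups.

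TLR3 sits in endosomes and signals through the adapter TRIF (Ticam1) to the factors IRF3 and NF-κB. IRF3 and NF-κB together switch on the interferon-β gene, and secreted interferon-β binds its receptor on the same and neighbouring cells. The receptor activates a complex that holds STAT2 and IRF9 and binds interferon-stimulated response elements (ISRE) upstream of antiviral genes. NF-κB sites stand upstream of many cytokine and chemokine genes. Cytosolic sensors such as MDA5 (Ifih1) and RIG-I (Ddx58) also recognise double-stranded RNA.

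Values below are the deposited log2 expression values, a difference of 1 being a doubling. A probe was tested when the scanner software had flagged it as clearly brighter than background in 2 or more arrays of a group (below, above background), and called at a limma adjusted p below 0.05 with a change of at least 1.5-fold. Acute Poly(I:C) changed 1713 of 28424 probes (6.03%), of which 1080 were higher (3.80% of those tested) and 633 lower (2.23%). The called rises had a median of 2.37 and the called falls of −1.37, probes below background in 1 group included at their measured values. A change of 4-fold or more was seen in 665 of the 1080 higher probes and in 104 of the 633 lower ones. When arrays were scaled by their medians and not by quantiles (median scaling), 1318 probes were called higher and 117 lower, so that 91.8% of the calls were rises against 63.0%. Under it limma gave all probes 1 common spread, which can make adjusted p values very small, and the median change of all probes moved from −0.10 to 0.28. The groups did not overlap at 8331 probes (29.3% of those tested), 3407 of them higher and 4924 lower. By their representative probes, 762 of 20514 genes were called higher (3.71%) and 483 lower (2.35%), 6.07% in all.

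**Figure D1:**
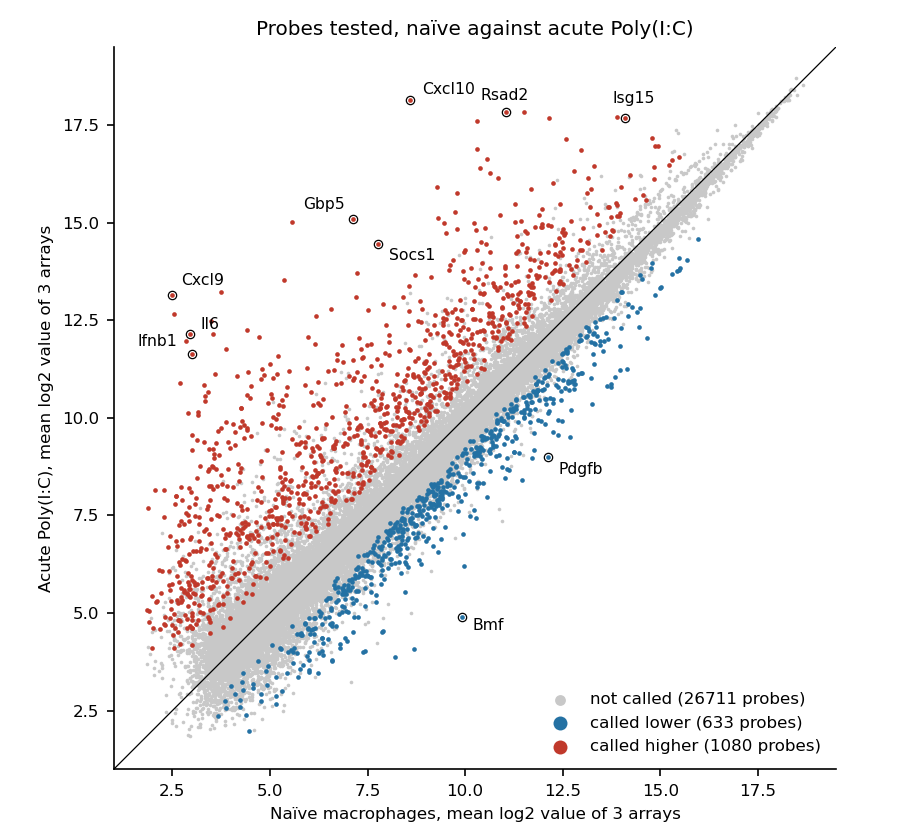
Mean log2 value of each of the 28424 tested probes in the 3 naïve arrays (horizontal axis) and the 3 acute Poly(I:C) arrays (vertical axis), with the line of equal values. The 1080 probes called higher (red) reach further from the line than the 633 called lower (blue), and circled points are genes named in the text.

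Slides 1, 2 and 3 each carried the arrays of 1 replicate number, and slide 3 stood apart. Naïve replicate 3 had 74.6% of its probes well above background against 45% to 49.8% on the other 5 arrays. Granulocyte markers averaged 9.66 and 10.17 on naïve replicates 1 and 2 and 5.34 on replicate 3. In acute Poly(I:C) the same list averaged 10.17, 11.02 and 5.44, so that it was low on slide 3 in both groups. The log2 of its summed level was 12.12 to 14.25 over the naïve and 12.11 to 15.09 over the Poly(I:C) arrays, and 0 of its 10 genes were called by limma (1 higher with the replicate block). Of its defining markers, Ltf was 10.86, 11.43 and 2.09 in naïve and 11.26, 12.64 and 3.02 in Poly(I:C). The macrophage list (10 genes, among them Csf1r, Cd68 and Cd14) averaged 14.77 to 14.90 in naïve and 14.83 to 15.02 in Poly(I:C), high on every array, and 0 were called. Of the T and NK cell, B cell, erythroid and stromal lists 2, 3, 3 and 3 genes of 10 each were tested, and limma called 0 of these. Over all genes 6.07% were called, so 0 calls in marker lists of 2 to 10 genes say little about cell content. The T cell kinase gene Lck was 6.26, 6.22 and 4.48 in naïve and 10.67, 10.24 and 7.92 in Poly(I:C), with no overlap of the groups but not called (change 3.96 ± 0.86 (adjusted p = 0.0556), 0.0191 with the replicate block, 1.22e-07 to 0.207 over all alternatives), while the T cell receptor subunit Cd3e had a change of 0.17 ± 0.23 (adjusted p = 0.717). Of 5 tested dendritic cell genes 1 was called, Zbtb46 (3.46 ± 0.61 (adjusted p = 0.0338)), and 0 without any array of slides 1 or 2. Naïve replicate 3 was also higher than the other naïve arrays in inflammatory genes, with Tnf at 9.0, 9.53 and 13.44 and Il10 at 4.73, 5.49 and 8.45 on naïve replicates 1, 2 and 3. The part of granulocyte content in any result was not tested, and in bulk RNA fewer cells of a type and less RNA per cell cannot be told apart. Naïve arrays always lay in row 1, column 1 of a slide and Poly(I:C) arrays in row 2, column 1, so position and treatment cannot be told apart.

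**Figure D2:**
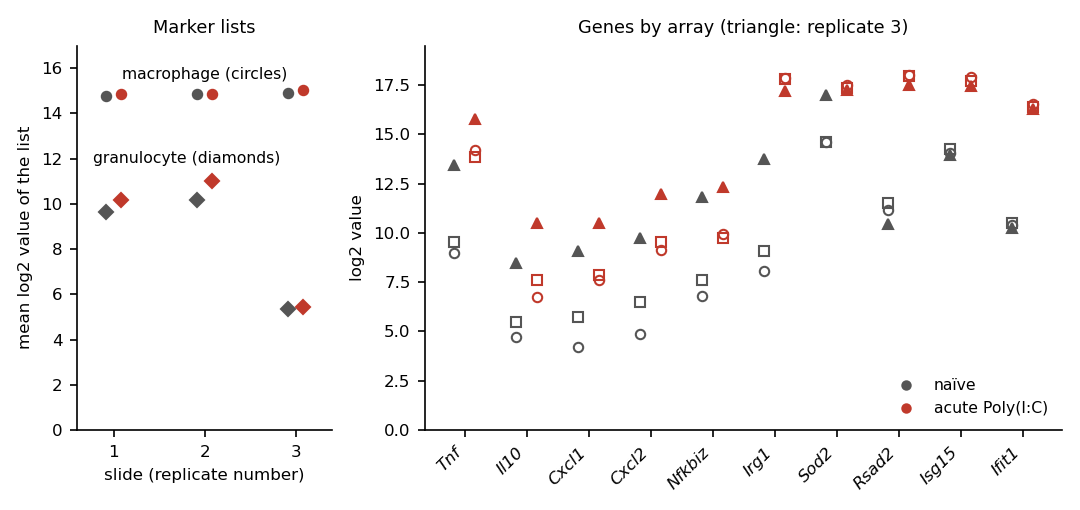
Left, mean log2 value of the macrophage list (circles) and the granulocyte list (diamonds) by slide, naïve in grey and acute Poly(I:C) in red; right, log2 values of 10 genes on each array with filled triangles for replicate 3. The granulocyte list is near 5.4 on slide 3 and near 10 or above on slides 1 and 2, and naïve replicate 3 lies above the other naïve arrays for Tnf, Il10, Cxcl1, Cxcl2, Nfkbiz, Irg1 and Sod2.

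Promoters of genes that rose are shown because the interferon and NF-κB routes are known by the letters they bind. The windows are RefSeq promoters of GRCm38.p6 (250 bases before to 50 after each start), a newer build than the mm9 positions of the array design. Searched on both strands were the ISRE core (GAAA, any pair of bases, GAAA, or TTTC, any pair, TTTC on the other strand) and the NF-κB consensus. Capitals mark the matches, overlapping ones joined. Only promoters with a match are shown, and the windows of other large rises, such as Cxcl9, Ccl12, Cmpk2, Il12b, Irg1 and Tnfsf10, held neither motif. The first set pairs interferon-β with the chemokine CXCL10 and interleukin-6, each with at least 1 NF-κB match. Of these, Cxcl10 (chr5:92348968-92349117, minus strand, −228 to −79 from the start) held 1 ISRE core, leftmost, and 2 NF-κB matches. Ifnb1 is shown at chr4:88522886-88522925, minus strand and Il6 at chr5:30013055-30013094, plus strand.
Cxcl10: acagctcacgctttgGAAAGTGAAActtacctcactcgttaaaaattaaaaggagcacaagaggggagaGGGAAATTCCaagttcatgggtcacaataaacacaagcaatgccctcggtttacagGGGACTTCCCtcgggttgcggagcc
Ifnb1: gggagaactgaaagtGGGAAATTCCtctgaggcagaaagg
Il6: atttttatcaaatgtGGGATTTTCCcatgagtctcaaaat

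The second set shows ISRE cores in an ubiquitin-like modifier (Isg15, chr4:156200860-156200911, minus strand), a protein that binds viral RNA (Ifit1, chr19:34640770-34640828, plus strand) and viperin (Rsad2, chr12:26456548-26456587, minus strand). It goes on with a guanylate-binding protein (Gbp3, chr3:142559984-142560029, plus strand), an immunity-related GTPase (Igtp, chr11:58199507-58199546, plus strand) and the cytokine signalling inhibitor Socs1 (chr16:10785589-10785634, minus strand).
Isg15: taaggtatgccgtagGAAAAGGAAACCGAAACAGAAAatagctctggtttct
Ifit1: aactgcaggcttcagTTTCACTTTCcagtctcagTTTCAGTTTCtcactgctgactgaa
Rsad2: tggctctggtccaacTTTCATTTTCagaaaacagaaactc
Gbp3: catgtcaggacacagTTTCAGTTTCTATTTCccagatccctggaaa
Igtp: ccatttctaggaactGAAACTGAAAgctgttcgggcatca
Socs1: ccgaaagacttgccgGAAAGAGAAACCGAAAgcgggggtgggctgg

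Of all 32851 windows, 3.44% held the ISRE core and 4.5% the NF-κB consensus. Counting a gene once over its windows, 69 of 423 matched genes called higher (16.3%) held the ISRE core, against 430 of 11095 matched tested genes (3.88%) and 4 of 337 called lower (1.19%). NF-κB matches stood in 42 of the 423 (9.93%), in 696 of the 11095 (6.27%) and in 22 of the 337 (6.53%). The core stood in 9 of 10 matched guanylate-binding and immunity-related GTPases that were called higher. Among antiviral effectors it stood in 14 of 31 called higher and in 8 of 14 not called. For sensors these counts were 4 of 10 and 1 of 13, for PARP genes 1 of 5 and 1 of 8, and for cytokines 0 of 7 and 4 of 20. NF-κB matches stood in 1 of 7 cytokines called higher and 5 of 20 not called higher. For chemokines they stood in 1 of 4 and 5 of 13, and for NF-κB proteins and feedback inhibitors in 3 of 8 and 7 of 19. These counts describe letters in the windows and carry no test.

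Sensing of nucleic acids came first in the pathway, and 12 of 27 tested sensor and adapter genes were called higher and 0 lower (median change 1.21, against −0.11 for all genes). Beside this and every list count below stand the 3.71% of all genes called higher and the 2.35% called lower. With naïve replicates 1, 2 and 3 left out in turn the calls numbered 4, 4 and 14, and with those of Poly(I:C) 4, 3 and 13. Ifih1, which encodes the double-stranded RNA sensor MDA5, was 11.39, 11.55 and 10.89 on the naïve arrays and 16.12, 15.60 and 14.70 on the Poly(I:C) arrays, a change of 4.19 ± 0.40 (adjusted p = 0.00768), where ± is the standard error of a difference of 3 and 3 arrays. Eif2ak2, the double-stranded RNA-dependent kinase PKR, went from 10.47, 10.64 and 10.32 to 13.35, 13.28 and 12.98, a change of 2.73 ± 0.19 (adjusted p = 0.00254). E330016A19Rik, named Cgas in RefSeq and coding for the cytosolic DNA sensor cGAS, went from 10.12, 10.38 and 10.21 to 13.10, 13.19 and 12.66, a change of 2.75 ± 0.20 (adjusted p = 0.00347). For all 3 genes every Poly(I:C) array lay above every naïve array. Ddx60, a helicase linked to RNA sensing, changed by 3.34 ± 0.61 (adjusted p = 0.0370), and the RIG-I gene Ddx58 by 2.30 ± 0.18 (adjusted p = 0.00438). The calls of Ifih1 and Ddx60 were lost without single arrays, with adjusted p up to 0.0556 and 0.157, both without Poly(I:C) replicate 2.

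The receptor itself, Tlr3, was 5.27, 5.56 and 2.81 in naïve and 8.51, 8.9 and 7.63 in Poly(I:C) BMDM. Its groups did not overlap, but with a change of 3.80 ± 0.79 its adjusted p was 0.050 and it missed the call. Naïve replicate 3 was far below the other naïve arrays. With the replicate number as a block the adjusted p of Tlr3 was 0.0384 (1.91e-07 to 0.192 over all alternatives). Ticam1, the TLR3 adapter, had a change of −1.06 ± 0.31 (adjusted p = 0.113), and the RIG-I and MDA5 adapter gene Mavs of −0.88 ± 0.20 (adjusted p = 0.0581), neither called.

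Among interferons, their receptors and kinases, 2 of 20 tested genes were called higher (10%) and 0 lower (median 0.32), beside 3.71% and 2.35% of all genes. The calls in this list numbered 1, 1 and 2 without naïve replicates 1, 2 and 3 and 1, 1 and 3 without those of Poly(I:C). The replicate block called 1 higher and 0 lower. Ifnb1, interferon-β, stood at 3.13, 2.95 and 2.93 on the naïve arrays, of which 1 was above background, and at 12.22, 11.68 and 10.99 on the Poly(I:C) arrays. It rose by 8.63 ± 0.33, 395-fold (adjusted p = 0.00109), with no overlap of the groups. Jak2, a cytokine receptor kinase, rose by 2.46 ± 0.34 (adjusted p = 0.0189), with an adjusted p of 0.0624 under the replicate block (0.000105 to 0.0997 over all alternatives). Of 9 tested interferon-α genes limma called 0, and apart from Ifna11, which was below background on the Poly(I:C) arrays, their changes ran from −0.11 to 0.74. The receptor chain Ifnar1 had a change of −0.55 ± 0.27 (adjusted p = 0.295), not called.

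Of 16 interferon regulatory factors and STATs, 2 were called higher (12.5%) and 0 lower (median 0.61), beside 3.71% and 2.35% of all genes. Leaving out naïve replicates 1, 2 and 3 in turn gave 1, 2 and 4 calls, and leaving out those of Poly(I:C) 1, 1 and 3. Median scaling called 4 higher and 0 lower. Irf1, itself an interferon-induced activator, went from 12.74, 13.10 and 13.03 to 17.28, 17.10 and 16.16, a rise of 3.89 ± 0.33 (adjusted p = 0.00515). Stat2, a subunit of the interferon-activated complex, went from 12.54, 12.82 and 12.05 to 14.61, 14.52 and 14.42, a rise of 2.05 ± 0.24 (adjusted p = 0.0119) that was lost without naïve replicate 1 (0.0560), Poly(I:C) replicate 1 (0.0710) or Poly(I:C) replicate 2 (0.0740). In both genes all Poly(I:C) arrays exceeded all naïve ones. Irf7, which amplifies interferon production, was 11.74, 12.55 and 10.37 in naïve and 13.67, 13.996 and 13.22 in Poly(I:C) BMDM, with a change of 2.08 ± 0.57 (adjusted p = 0.0972). Naïve replicate 3 was the lowest array and the groups did not overlap, yet the adjusted p of Irf7 missed the threshold. Irf3, present before any ligand, had a change of −0.46 ± 0.16 (adjusted p = 0.176).

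**Figure D3:**
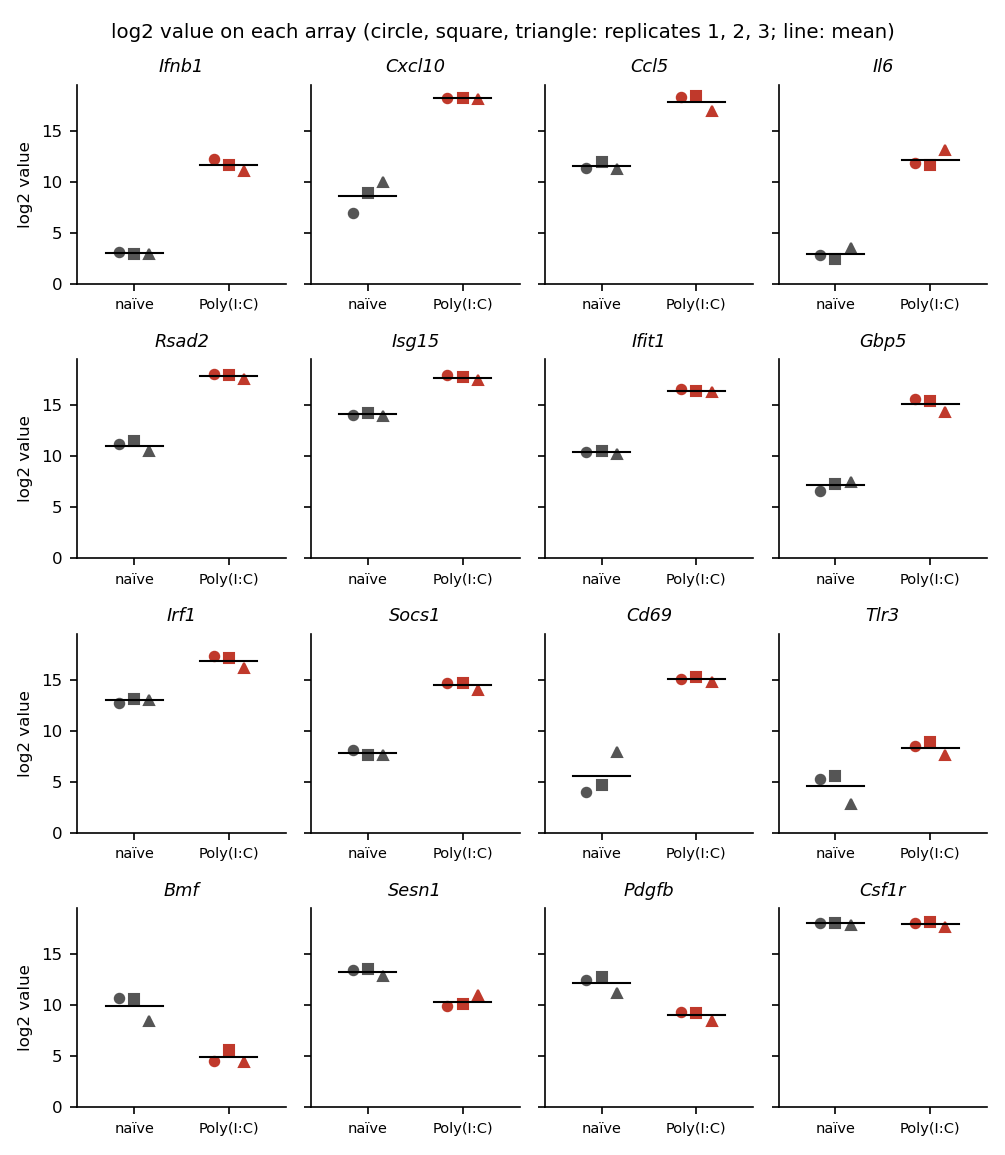
Log2 value of 16 genes on each array, naïve in grey and acute Poly(I:C) in red, with circles, squares and triangles for replicates 1, 2 and 3 and a line at each mean. The groups are apart for all genes but Csf1r, and naïve replicate 3 departs from the other naïve arrays for Tlr3, Cd69 and Bmf.

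Of 56 tested antiviral effectors 38 were called higher and 0 lower (median 1.93). Calls numbered 21, 28 and 39 when naïve replicates 1, 2 and 3 were left out in turn, and 17, 15 and 39 for those of Poly(I:C). Rsad2, viperin, which blocks viral replication, went from 11.15, 11.50 and 10.47 to 18.03, 17.96 and 17.51, a rise of 6.79 ± 0.32 (adjusted p = 0.00114). Cmpk2, the neighbouring mitochondrial nucleotide kinase gene, went from 10.45, 10.50 and 9.94 to 17.19, 17.09 and 16.35, a rise of 6.58 ± 0.30 (adjusted p = 0.00109). Mx1, a gene of the dynamin-like GTPase family, went from 10.50, 11.14 and 10.01 to 16.72, 16.64 and 16.57, a rise of 6.09 ± 0.31 (adjusted p = 0.00133). Each of the 3 genes was high on every Poly(I:C) array and low on every naïve array. Ifit1 went from 10.41, 10.50 and 10.24 to 16.52, 16.41 and 16.30 and rose by 6.02 ± 0.16 (adjusted p = 0.000399). Isg15 went from 14.04, 14.26 and 13.96 to 17.89, 17.71 and 17.44 and rose by 3.59 ± 0.19 (adjusted p = 0.00141). Gm14446, a gene of the Ifit1 family (Ifit1bl1 in RefSeq), went from 2.84, 5.76 and 2.61 to 13.82, 13.81 and 12.02. It rose by 9.48 ± 0.97 (adjusted p = 0.00895), with naïve replicate 2 above the other naïve arrays, and the call was lost without Poly(I:C) replicate 1 (0.0564) or 2 (0.0594).

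Other effectors rose less or were not called. Oas1a, an oligoadenylate synthetase activated by double-stranded RNA, went from 15.24, 15.36 and 15.07 to 16.54, 16.42 and 16.51, a rise of 1.26 ± 0.16 (adjusted p = 0.0150). Bst2 (tetherin) was 15.32, 15.29 and 15.33 and 15.65, 15.71 and 15.65, a change of 0.36 ± 0.14 (adjusted p = 0.220). Ifitm3, which restricts virus entry, had a change of 0.45 ± 0.38 (adjusted p = 0.553), also not called. Oas1a and Bst2 were higher on every Poly(I:C) array than on every naïve one, and the Ifitm3 groups overlapped.

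Interferon-inducible GTPases, which attack the vacuoles of intracellular pathogens, had the highest median of the lists: 15 of 18 tested genes were called higher and 0 lower (median 4.72). With the replicate block 17 were called. With naïve replicates 1, 2 and 3 left out in turn the calls numbered 12, 14 and 15, and with those of Poly(I:C) 10, 10 and 16. Gbp5 went from 6.61, 7.31 and 7.49 to 15.55, 15.35 and 14.35, a rise of 7.95 ± 0.40 or 247-fold (adjusted p = 0.00133). Gbp3 went from 9.35, 9.63 and 9.54 to 15.19, 14.84 and 14.17 and rose by 5.22 ± 0.29 (adjusted p = 0.00150). Igtp went from 11.52, 11.77 and 11.74 to 16.04, 15.93 and 15.62 and rose by 4.18 ± 0.19 (adjusted p = 0.00109). All Poly(I:C) arrays lay above all naïve ones for these genes, with replicate 3 the lowest of the Poly(I:C) arrays for each. Gbp4 was 3.18, 5.38 and 2.09 in naïve BMDM, above background on 1 array, and 12.78, 13.06 and 10.61 in Poly(I:C) BMDM. Its rise of 8.60 ± 1.02 (adjusted p = 0.0125) lost the call without naïve replicate 1 (0.0608), Poly(I:C) replicate 1 (0.0713) or Poly(I:C) replicate 2 (0.0712). Gbp2 rose by 5.97 ± 0.61 (adjusted p = 0.00879) and Gbp11 by 5.79 ± 0.71 (adjusted p = 0.0135), and each lost its call without Poly(I:C) replicate 1 or 2, with adjusted p up to 0.0594 and 0.0724. Gbp11 also lost it without naïve replicate 1 (0.0604). Gbp8, Gbp9 and Gvin1 were not called, with changes of 2.05, 3.31 and 2.16. Whether probes of closely related GTPases, such as Tgtp1 and Tgtp2, also read each other's transcripts was not tested.

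PARP family genes, which add ADP-ribose to proteins, were called higher in 8 of 17 cases and lower in 0 (median 1.34). The calls in this list numbered 4, 6 and 8 without naïve replicates 1, 2 and 3 and 3, 2 and 9 without those of Poly(I:C). Tiparp, a mono-ADP-ribosyltransferase, went from 10.705, 10.57 and 10.85 to 13.53, 13.60 and 13.20, a rise of 2.73 ± 0.19 (adjusted p = 0.00262). Parp14 went from 13.35, 13.41 and 12.88 to 16.13, 15.94 and 15.52, a rise of 2.65 ± 0.25 (adjusted p = 0.00699) with an adjusted p of 0.0555 without Poly(I:C) replicate 2. Neither gene's groups overlapped. Parp11 and Dtx3l, the partner of Parp9, rose by 2.43 and 2.27. Parp1, the DNA damage enzyme, had a change of −0.64 ± 0.31 (adjusted p = 0.301).

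**Figure D4:**
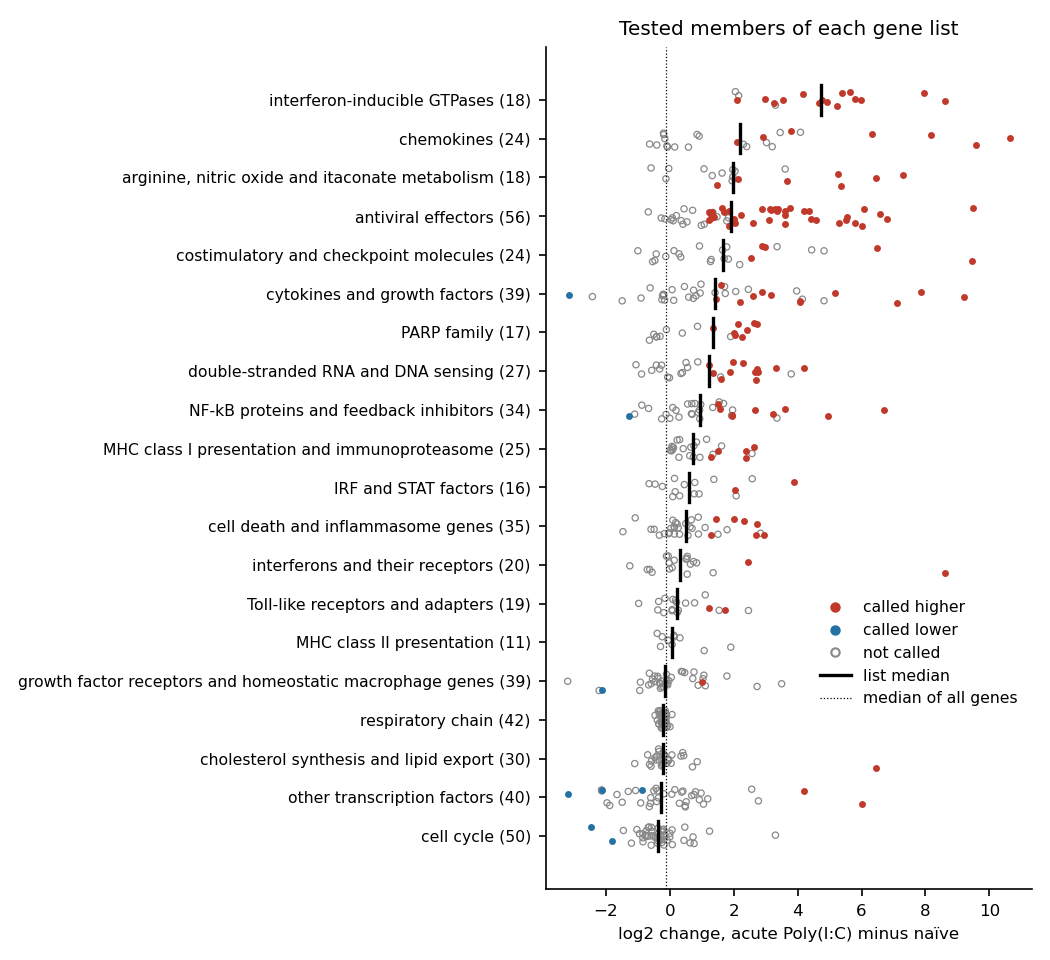
Log2 change of every tested member of 20 gene lists (number tested in brackets), ordered by list median, with filled points for called genes, open points for the rest, a bar at each list median and a dotted line at the median of all genes, −0.11. GTPases (median 4.72), chemokines (2.21), the arginine, nitric oxide and itaconate list (1.97) and antiviral effectors (1.93) lie to the right. Cell cycle genes (−0.37) lie at the other end. The rightmost chemokine, Cxcl9, had no naïve array above background.

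Chemokines, which recruit leukocytes, were called higher in 7 of 24 tested cases and lower in 0 (median 2.21). Leaving out naïve replicates 1, 2 and 3 in turn gave 5, 5 and 8 calls, and leaving out those of Poly(I:C) 3, 3 and 8. A fit with the replicate block called 8 higher and 0 lower, and median scaling called 13 higher and 0 lower. Cxcl10, a ligand of CXCR3 on T and NK cells, stood at 6.89, 8.89 and 9.96 in naïve and at 18.15, 18.17 and 18.12 in Poly(I:C) BMDM. The Poly(I:C) arrays were alike while the naïve ones were spread, and the rise was 9.57 ± 0.75 or 759-fold (adjusted p = 0.00419). Ccl5, which draws T cells and monocytes, went from 11.33, 11.92 and 11.27 to 18.24, 18.35 and 16.92 and rose by 6.33 ± 0.44 (adjusted p = 0.00264). Ccl12, a monocyte attractant, went from 4.62, 5.6 and 5.84 to 13.33, 14.20 and 13.07 and rose by 8.18 ± 0.44 (adjusted p = 0.00141). Groups of these chemokines did not overlap. Cxcl9, the other interferon-induced CXCR3 ligand of this list that rose, was 1.99, 3.27 and 2.24 on the naïve arrays, above background on 0 of them, and 14.56, 14.42 and 10.45 on the Poly(I:C) arrays. It was at least 1433-fold higher (adjusted p = 0.0101), measured against the lowest signal above background where that exceeded the naïve value. Poly(I:C) replicate 3 lay below the other 2 for Cxcl9, and the call was lost without naïve replicate 1 (0.0524) or Poly(I:C) replicates 1 (0.0547) or 2 (0.0594).

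Neutrophil-attracting chemokines were not called. Cxcl1 was 4.22, 5.73 and 9.1 in naïve and 7.6, 7.85 and 10.51 in Poly(I:C) BMDM, a change of 2.30 ± 1.41 (adjusted p = 0.412). Cxcl2 was 4.85, 6.49 and 9.73 and 9.15, 9.56 and 11.98, a change of 3.21 ± 1.38 (adjusted p = 0.249). For both, each Poly(I:C) array was above the naïve array of its own slide, but naïve replicate 3 was above Poly(I:C) replicates 1 and 2.

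Cytokines and growth factors had 12 of 39 tested genes called higher and 1 lower (median 1.42). Calls numbered 4, 3 and 16 when naïve replicates 1, 2 and 3 were left out in turn, and 2, 3 and 12 for those of Poly(I:C). The list median was 1.6, 1.64 and 0.75 within slides 1, 2 and 3. Il6, a fever and acute-phase cytokine, stood at 2.84, 2.47 and 3.55 on naïve arrays, above background on 1, and at 11.82, 11.60 and 13.05 on Poly(I:C) arrays. Its rise was 9.20 ± 0.47 or 589-fold (adjusted p = 0.00135), with replicate 3 the highest in both groups. Il12b, the p40 subunit shared by interleukins 12 and 23, went from 3.02, 3.88 and 3.11 to 10.57, 10.58 and 10.17, a rise of 7.10 ± 0.29 (adjusted p = 0.00109). Tnfsf10 (TRAIL), a death ligand, went from 4.72, 5.51 and 2.97 to 12.67, 12.81 and 11.26, a rise of 7.85 ± 0.75 (adjusted p = 0.00762) that was lost without Poly(I:C) replicate 1 (0.0526) or 2 (0.0525). All groups of these 3 cytokines were apart. Il15, which sustains NK cells, rose by 4.07 ± 0.61 (adjusted p = 0.0226), and Il27 by 3.16 ± 0.49 (adjusted p = 0.0239). With 2 calls left in the list without Poly(I:C) replicate 1, not every lost call is named here. Fgf8, a developmental growth factor, went from 6.14, 5.07 and 5.04 to 11.59, 10.86 and 9.33, a rise of 5.18 ± 0.64 (adjusted p = 0.0135), lost without naïve replicate 2 (0.0614), Poly(I:C) replicate 1 (0.0583) or 2 (0.0803). Pdgfb, a platelet-derived growth factor chain and the 1 called fall, went from 12.45, 12.72 and 11.23 to 9.35, 9.22 and 8.41, a change of −3.14 ± 0.47 (adjusted p = 0.0221). Its call was lost without each array of slides 1 and 2, with adjusted p of 0.0818 to 0.101.

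Tnf, Il10 and Il1b, which encode cytokines of macrophage activation and its restraint, were not called. Tnf was 9.0, 9.53 and 13.44 in naïve and 14.22, 13.86 and 15.80 in Poly(I:C) BMDM, a change of 3.97 ± 1.25 (adjusted p = 0.134). Without slide 3 its change was 4.78 (adjusted p = 0.00528), and over all other alternatives its adjusted p was 7.31e-10 to 0.330. Il10 was 4.73, 5.49 and 8.45 and 6.77, 7.61 and 10.48, so that each Poly(I:C) array was about 2 log2 units above the naïve array of its slide while the groups overlapped. Its change was 2.06 ± 1.32 (adjusted p = 0.430), and with the replicate block the adjusted p was 0.0169 (0.00256 to 0.661 over all alternatives). Il1b, the pyrogen interleukin-1β, was 4.7, 6.71 and 6.64 and 7.86, 8.42 and 9.15, a change of 2.46 ± 0.64 (adjusted p = 0.0848).

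NF-κB proteins and feedback inhibitors had 9 of 34 genes called higher and 1 lower (median 0.94). With naïve replicates 1, 2 and 3 left out in turn the calls numbered 1, 1 and 15, and with those of Poly(I:C) 2, 1 and 11. A fit with the replicate block called 5 higher and 1 lower, and the list median was 1.31, 1.37 and 0.37 within slides 1, 2 and 3. Socs1, which shuts down JAK kinases, went from 8.1, 7.62 and 7.59 to 14.69, 14.68 and 14.02, a rise of 6.69 ± 0.27 (adjusted p = 0.00109) with the groups far apart. Socs3, the inhibitor of interleukin-6 receptor signalling, was 7.14, 7.82 and 11.15 in naïve and 13.82, 13.65 and 13.52 in Poly(I:C) BMDM. Here naïve replicate 3 was well above the other naïve arrays, and the rise of 4.96 ± 1.03 (adjusted p = 0.0495) had an adjusted p of 0.0797 under the replicate block (1.51e-14 to 0.180 over all alternatives). Nfkbie, an inhibitor of NF-κB, rose by 3.60 ± 0.67 (adjusted p = 0.0380), or 0.0925 under the block (4.8e-08 to 0.160 over all alternatives). Dusp2, a phosphatase of MAP kinases, rose by 3.23 ± 0.37 (adjusted p = 0.0112). With 1 call left in the list without naïve replicate 1, the calls lost there are not named gene by gene. Nfkbia, IκBα, was 13.37, 13.69 and 15.53 and 16.28, 15.98 and 16.22, a change of 1.96 ± 0.57 (adjusted p = 0.112), not called. Map3k14, the NF-κB-inducing kinase of the alternative pathway, was the called fall (−1.28 ± 0.23 (adjusted p = 0.0339)), and its p was 0.0572 under the block (0.00228 to 0.909 over all alternatives). Of 19 tested Toll-like receptors and adapters 2 were called higher, Myd88 (1.72 ± 0.25 (adjusted p = 0.0211)) and Tlr6 (1.23 ± 0.20 (adjusted p = 0.0278)), and 0 with the replicate block (adjusted p = 0.0516 and 0.0660). These 2 were 10.5% of the list, beside 3.71% of all genes called higher. The calls in this list numbered 0, 0 and 4 without naïve replicates 1, 2 and 3 and 0, 0 and 4 without those of Poly(I:C). Tlr4 was 11.43, 11.29 and 10.58 and 11.10, 11.23 and 11.26, a change of 0.10 ± 0.26 (adjusted p = 0.860).

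Class I antigen presentation had 5 of 25 genes called higher (20%) and 0 lower (median 0.74), beside 3.71% and 2.35% of all genes. Leaving out naïve replicates 1, 2 and 3 in turn gave 2, 3 and 5 calls, and leaving out those of Poly(I:C) 2, 2 and 9. Median scaling called 8 higher and 0 lower. Nlrc5, the transactivator of class I genes, went from 10.05, 10.49 and 9.96 to 12.88, 12.95 and 12.55, a rise of 2.63 ± 0.22 (adjusted p = 0.00509). H2-T10, a non-classical class I gene, went from 10.11, 10.12 and 9.61 to 12.44, 12.35 and 12.17, a rise of 2.37 ± 0.21 (adjusted p = 0.00556). Tap1, the peptide transporter, rose by 2.38 ± 0.36 (adjusted p = 0.0234). The classical heavy chain H2-K1 was 17.02, 16.99 and 16.61 and 17.44, 17.39 and 16.71, and β2-microglobulin (B2m) 17.44, 17.52 and 17.12 and 17.55, 17.60 and 17.27. So the activator and the transporter were higher on all Poly(I:C) arrays. H2-K1 and B2m had changes of 0.31 ± 0.26 (adjusted p = 0.561) and 0.12 ± 0.19 (adjusted p = 0.768), within the spread of the arrays taken as unpaired. For both, each Poly(I:C) array was slightly above the naïve array of its own slide. Of 11 tested class II genes 0 were called by limma (median 0.07), 1 with the replicate block, beside 6.07% of all genes called.

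Of 24 costimulatory and checkpoint genes 5 were called higher and 0 lower (median 1.68). Calls numbered 3, 2 and 10 when naïve replicates 1, 2 and 3 were left out in turn, and 1, 1 and 10 for those of Poly(I:C). The replicate block called 4 higher and 0 lower, median scaling called 12 higher and 0 lower, and the list median was 2.13, 1.98 and 0.66 within slides 1, 2 and 3. Cd69, an early activation antigen, went from 4.04, 4.7 and 7.92 to 15.04, 15.25 and 14.78, a rise of 9.47 ± 1.00 (adjusted p = 0.00931). Naïve replicate 3 was the highest naïve array by over 3 log2 units, and the call was lost without Poly(I:C) replicate 1 (0.0583) or 2 (0.0608). Cd274 (PD-L1), the ligand that restrains T cells, went from 12.03, 11.62 and 12.28 to 15.08, 14.93 and 14.85, a rise of 2.97 ± 0.22 (adjusted p = 0.00343). Cd40, the receptor for T cell help, went from 6.1, 6.91 and 8.65 to 14.32, 14.02 and 12.77, a rise of 6.48 ± 0.74 (adjusted p = 0.0115), and its adjusted p was 0.0541 under the replicate block (1.22e-23 to 0.0699 over all alternatives). Groups did not overlap in any of the 3. Cd80 (−0.54 ± 0.22 (adjusted p = 0.219)) and Cd86 (1.70 ± 0.71 (adjusted p = 0.235)), the ligands of CD28, were not called.

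Cell death and inflammasome genes had 7 of 35 called higher and 0 lower (median 0.50). With naïve replicates 1, 2 and 3 left out in turn the calls numbered 1, 2 and 9, and with those of Poly(I:C) 1, 1 and 9. A fit with the replicate block called 4 higher and 0 lower, and the list median was 0.74, 0.55 and 0.21 within slides 1, 2 and 3. Nlrp3, an inflammasome sensor, went from 5.68, 5.45 and 5.27 to 8.07, 8.56 and 7.91, a rise of 2.71 ± 0.24 (adjusted p = 0.00548), and Aim2, the DNA inflammasome sensor, from 7.1, 7.25 and 6.74 to 10.25, 9.8 and 9.16, a rise of 2.71 ± 0.32 (adjusted p = 0.0124). Casp4, the receptor for cytosolic LPS, rose by 2.94 ± 0.45 (adjusted p = 0.0235), 0.0699 under the replicate block (4.1e-06 to 0.115 over all alternatives). Mlkl, the executor of necroptosis, rose by 2.02 ± 0.21 (adjusted p = 0.00920). As 1 call was left in this list without naïve replicate 1, most of its calls were lost there. Effector genes of arginine, nitric oxide, itaconate and lipid mediator metabolism had 7 of 18 called higher and 0 lower (median 1.97). The calls in this list numbered 2, 2 and 9 without naïve replicates 1, 2 and 3 and 1, 1 and 10 without those of Poly(I:C). The replicate block called 3 higher and 0 lower, median scaling called 11 higher and 0 lower, and the list median was 2.60, 2.36 and 1.29 within slides 1, 2 and 3. Nos2, inducible nitric oxide synthase, went from 7.05, 7.28 and 7.88 to 11.13, 11.46 and 10.60, a rise of 3.66 ± 0.32 (adjusted p = 0.00562). Ptgs2, cyclooxygenase-2, went from 3.11, 3.1 and 4.86 to 8.81, 8.73 and 9.64, a rise of 5.37 ± 0.55 (adjusted p = 0.00907) that was lost without Poly(I:C) replicate 1 (0.0547) or 2 (0.0556). Both enzymes were higher on every Poly(I:C) array. Irg1 (Acod1 in RefSeq), which makes itaconate, was 8.09, 9.08 and 13.77 in naïve and 17.83, 17.78 and 17.17 in Poly(I:C) BMDM. Naïve replicate 3 again stood above the other naïve arrays, and the rise of 7.29 ± 1.45 (adjusted p = 0.0448) had an adjusted p of 0.0807 under the replicate block (3.33e-31 to 0.172 over all alternatives). Ch25h, which makes the antiviral oxysterol 25-hydroxycholesterol, rose by 6.45 ± 0.83 (adjusted p = 0.0151), 0.0603 under the block (1.02e-23 to 0.0839 over all alternatives). It was the 1 gene called among 30 of cholesterol synthesis and lipid export (0 with the block), where the median was −0.21 (0.24 with median scaling). That is 3.33% of the list, near the 3.71% of all genes called higher.

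Of 40 transcription factors outside the IRF and STAT families 2 were called higher (5%) and 3 lower (7.5%), beside 3.71% and 2.35% of all genes (list median −0.27, and 0.21 with median scaling). Leaving out naïve replicates 1, 2 and 3 in turn gave 1, 1 and 7 calls, and leaving out those of Poly(I:C) 1, 1 and 9. The list median was −0.52, −0.43 and 0.22 within slides 1, 2 and 3. Batf2, an interferon-induced leucine zipper factor, went from 9.52, 9.49 and 9.73 to 13.97, 14.01 and 13.38, a rise of 4.21 ± 0.23 (adjusted p = 0.00141). Tbx21 (T-bet), known from T helper 1 cells, went from 2.99, 3.81 and 4.85 to 10.73, 10.46 and 8.51, a rise of 6.02 ± 0.73 (adjusted p = 0.0134), 0.0577 under the replicate block (4.89e-19 to 0.0757 over all alternatives). Cebpa (−2.11 ± 0.40 (adjusted p = 0.0403)) and Cebpb (−0.87 ± 0.17 (adjusted p = 0.0443)), both myeloid factors, were among the falls, with 0.0685 and 0.0554 under the block. The adjusted p of Cebpb reached 0.992 with median scaling.

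Among 39 receptors and homeostatic macrophage genes 1 was called higher, the activating Fc receptor Fcgr4 (1.01 ± 0.19 (adjusted p = 0.0402)), and 1 lower, the UDP receptor P2ry6. Each was 2.56% of the list, near the 3.71% called higher and 2.35% called lower of all genes. P2ry6 went from 14.39, 14.69 and 14.26 to 12.10, 12.35 and 12.54, a change of −2.11 ± 0.21 (adjusted p = 0.00800), lower on every Poly(I:C) array. Calls numbered 1, 1 and 4 when naïve replicates 1, 2 and 3 were left out in turn, and 0, 0 and 4 for those of Poly(I:C). The replicate block called 2 higher and 3 lower. With median scaling the adjusted p of P2ry6 was 0.260, and that of Fcgr4 under the replicate block was 0.0717. Csf1r, the receptor for macrophage colony-stimulating factor, was 18.07, 18.04 and 17.87 and 18.00, 18.08 and 17.68, a change of −0.08 ± 0.18 (adjusted p = 0.838). Of 50 cell cycle genes 0 were called higher and 2 lower (4%), beside 3.71% and 2.35% of all genes (list median −0.37, 0.00 with median scaling). The called falls were E2f2 (−2.46 ± 0.46 (adjusted p = 0.0377)) and the replication licensing factor Cdt1 (−1.82 ± 0.26 (adjusted p = 0.0191)). With naïve replicates 1, 2 and 3 left out in turn the calls numbered 0, 0 and 8, and with those of Poly(I:C) 0, 0 and 4. A fit with the replicate block called 1 higher and 0 lower, and the list median was −0.75, −0.58 and 0.16 within slides 1, 2 and 3. With slide 3 left out in both groups, 3 cell cycle genes were called higher and 13 lower. E2f2 and Cdt1 lost the call with the replicate block (0.0579 and 0.0626). Of 42 respiratory chain genes limma called 0, beside 6.07% of all genes, and their changes ran from −0.46 to 0.07 (median −0.20, 0.40 with median scaling).

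The falls of named genes with a signal in both groups were led by Bmf, a BH3-only promoter of cell death. Bmf was 10.68, 10.61 and 8.44 in naïve and 4.52, 5.66 and 4.49 in Poly(I:C) BMDM, 32.5-fold lower (log2 change −5.02 ± 0.69 (adjusted p = 0.0186)). 4930432F04Rik went from 8.07, 7.93 and 7.62 to 4.37, 4.19 and 4.98, a change of −3.36 ± 0.27 (adjusted p = 0.00423). Per1, a repressor of the circadian clock, went from 11.62, 11.58 and 11.13 to 7.96, 8.09 and 9.2, a change of −3.03 ± 0.37 (adjusted p = 0.0136), 0.0538 under the replicate block (1e-05 to 0.0778 over all alternatives). Groups did not overlap, and for 4930432F04Rik the call held with each array left out. Sesn1, a stress-induced inhibitor of mTORC1, went from 13.41, 13.50 and 12.83 to 9.93, 10.14 and 10.99, a change of −2.90 ± 0.35 (adjusted p = 0.0127), 0.0538 under the block (0.000438 to 0.0757 over all alternatives). Lpar6, a lysophosphatidic acid receptor, fell by 2.91 (adjusted p = 0.0278), Rab3il1 by 2.95 (0.0281), Fam78a by 2.90 (0.00879) and C130050O18Rik by 2.90 (0.0270). Under the block Lpar6, Rab3il1 and C130050O18Rik had adjusted p of 0.0685, 0.0603 and 0.0675. Without each array of slides 1 and 2 in turn, Bmf, Per1, Sesn1, Lpar6, Rab3il1 and C130050O18Rik lost their calls (adjusted p of 0.0580 to 0.131), and Fam78a lost it without Poly(I:C) replicate 2 (0.0594).

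Lhx2, Ptprg and Sez6l were also among the largest rises. Lhx2, a homeobox factor of brain and limb development, was 4.22, 3.69 and 2.83 in naïve and 11.88, 11.67 and 9.85 in Poly(I:C) BMDM, a rise of 7.55 ± 0.64 or 188-fold (adjusted p = 0.00515). Ptprg, a receptor tyrosine phosphatase, went from 4.4, 3.14 and 2.69 to 11.98, 11.03 and 8.99, a rise of 7.26 ± 0.85 (adjusted p = 0.0120). Sez6l, a gene known from neurons, went from 5.99, 4.51 and 2.85 to 11.93, 12.14 and 9.43, a rise of 6.72 ± 1.04 (adjusted p = 0.0241). All were higher on every Poly(I:C) array, with replicate 3 the lowest of each group. Ptprg lost its call without naïve replicate 2 (0.0560) or Poly(I:C) replicates 1 (0.0547) or 2 (0.0723), and Sez6l without any array of slides 1 or 2 (0.0528 to 0.114).

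From no naïve array above background, 18 genes were called higher, and 14 were called lower to no Poly(I:C) array above background. Each passed the detection filter through its brighter group alone. Over all genes 3.71% were called higher and 2.35% lower. How many genes of this kind were tested was not counted, so these counts have no share of their own. After Cxcl9, the largest of the 18 rises were Gm4841 (at least 45.6-fold, adjusted p = 0.00305), Mapt, the microtubule protein tau (at least 45.5-fold, 0.0196), and Ddx4, a germ cell RNA helicase (at least 35.9-fold, 0.00325). Ddx4 was 3.46, 2.6 and 2.14 on naïve and 7.97, 8.15 and 7.58 on Poly(I:C) arrays. Dll1, a Notch ligand, was 2.42, 2.61 and 2.27 and 7.39, 7.39 and 6.12, at least 22.9-fold higher (0.00515), and AF067061 at least 15.4-fold (0.0302). For each of these genes the 3 Poly(I:C) arrays were all above background and above all naïve values. The largest such falls were Zfp395 (7.81, 7.51 and 7.01 against 3.82, 3.76 and 4.46, at least 10.8-fold lower, 0.00556), Bbs12, a chaperonin-like protein of cilia (at least 7.12-fold, 0.0132), Dennd2c (at least 5.70-fold, 0.0404) and A030009H04Rik (at least 5.23-fold, 0.0389). The calls of Mapt, AF067061, Bbs12, Dennd2c and A030009H04Rik were lost without one or more arrays of slides 1 and 2 (adjusted p up to 0.163), that of Dennd2c also without Poly(I:C) replicate 3 (0.0635), and those of Dennd2c and A030009H04Rik with the replicate block (0.0891 and 0.0793). Among 5552 tested probes for numbered long intergenic noncoding RNA regions, 222 were called higher and 58 lower, 5.04% in all. Of all probes tested 6.03% were called, 3.80% higher and 2.23% lower.

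Acute CpG on the same slides served to ask where the response to Poly(I:C) differed. In a limma fit of Poly(I:C) against CpG, 46 of 26533 probes were called (0.173%), 23 higher and 23 lower in Poly(I:C) (0.0867% each). The called genes named below were all lower in Poly(I:C), and the 23 probes called higher are not described. Il1b was 16.14, 16.57 and 14.28 on the CpG arrays against 7.86, 8.42 and 9.15 on the Poly(I:C) arrays, a difference of −7.19 ± 0.65 (Poly(I:C) minus CpG, adjusted p = 0.0384). Ptgs2 was 14.64, 14.73 and 14.24 against 8.81, 8.73 and 9.64, a difference of −5.48 ± 0.30 (0.0138). Il12b was 15.14, 14.63 and 14.88 against 10.57, 10.58 and 10.17, a difference of −4.44 ± 0.22 (0.0132). Every CpG array was above every Poly(I:C) array in these 3 genes. Nlrp3 differed by −2.16 ± 0.24 (0.0483), and Cxcl1, a gene chosen after its values were seen, by −7.30 ± 0.79 (0.0455). With the replicate number as a block 0 probes were called (5432 at an unadjusted p below 0.05, against 3692 without the block), and these 5 genes had adjusted p of 0.0644 to 0.0938. Without CpG replicate 1 or 2, or Poly(I:C) replicate 1 or 2, the count was 0 as well.

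Among interferon-linked genes, limma called 0 of 56 antiviral effectors and 0 of 18 GTPases in that contrast, with median differences (Poly(I:C) minus CpG) of 1.32 and 1.91. Over all genes 0.201% were called in it. Rsad2 was 14.29, 14.24 and 17.31 on CpG replicates 1, 2 and 3 against 18.03, 17.96 and 17.51 for Poly(I:C), a difference of 2.55 ± 0.83 (0.255). Ifnb1 was 9.05, 8.3 and 12.25 against 12.22, 11.68 and 10.99, a difference of 1.76 ± 1.01 (0.542). CpG replicate 3 was far above CpG replicates 1 and 2 in both. In Ifnb1 it was above all Poly(I:C) arrays, and in Rsad2 below all of them. Tbx21 was 5.0, 4.24 and 2.87 on CpG arrays against 10.73, 10.46 and 8.51, a difference of 5.87 ± 0.76 (0.0639), and Fgf8 6.71, 5.1 and 5.63 against 11.59, 10.86 and 9.33, a difference of 4.78 ± 0.67 (0.0717). In Tbx21 and Fgf8 the groups did not overlap, yet the adjusted p missed the threshold. Ccl5 was 18.14, 18.19 and 18.00 with CpG, a difference of −0.27 ± 0.40 (0.882).

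**Figure D5:**
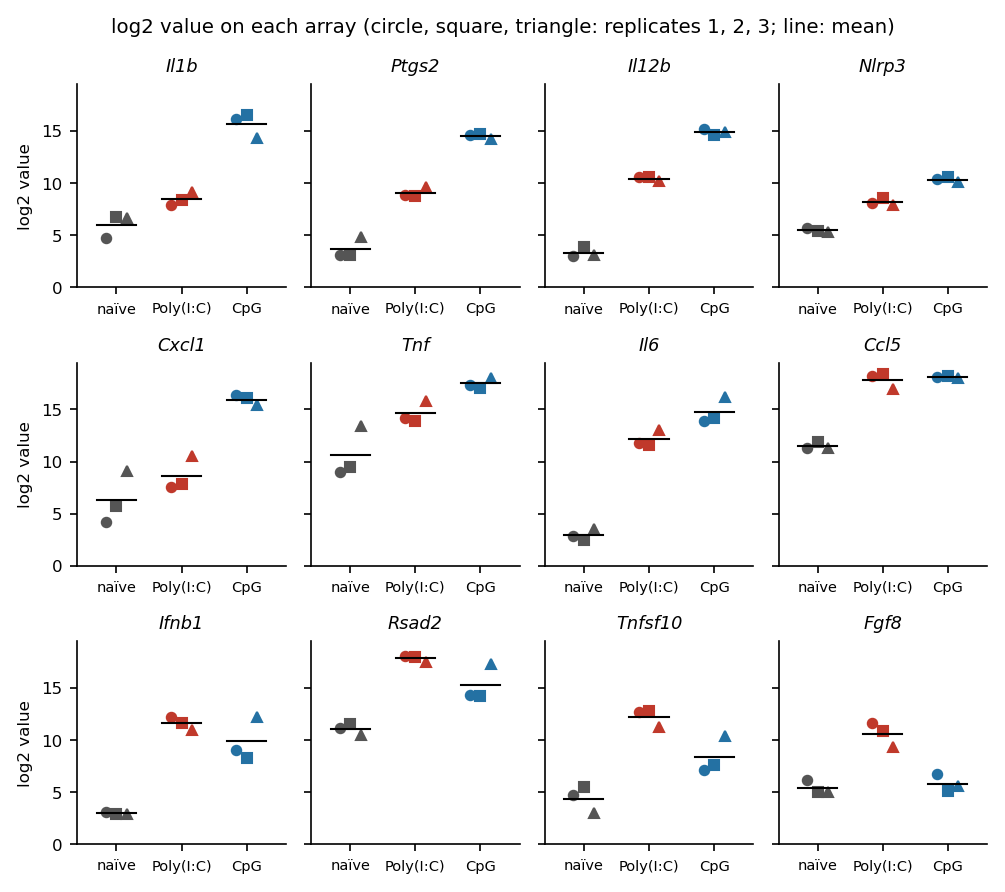
Log2 value of 12 genes on each naïve (grey), acute Poly(I:C) (red) and acute CpG (blue) array, with circles, squares and triangles for replicates 1, 2 and 3 and a line at each mean. Il1b, Ptgs2, Il12b, Nlrp3 and Cxcl1 are higher on all CpG arrays than on all Poly(I:C) arrays, and for Ifnb1, Rsad2 and Tnfsf10 the triangle of CpG lies above its other arrays.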

How the data were processed

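RNA of 3 naïve and 3 acute Poly(I:C) BMDM cultures, and of 3 acute CpG cultures for comparison, had been hybridised by the study to Agilent 8x60K mouse arrays in 1 colour (Cy3). The array files hold spot intensity values as deposited from Feature Extraction 10.7.3.1, without normalization. The deposited log2 values, which are used here, were made by the authors by RMA background correction and quantile normalization over 25 of the 27 arrays. The 2 arrays without deposited values are not used. Of 25 deposited columns, 25 correlated best with values remade from the intensities of their own array (median absolute difference 0.0354). The number of arrays limits the precision, and arrays give no read depth.

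Tests used limma 3.58.1 in R 4.3.3 on the 6 arrays compared (lmFit, eBayes, Benjamini-Hochberg over the probes tested). A probe was tested if the scanner software had flagged it as clearly brighter than background in 2 or more arrays of a group, and a call needs an adjusted p below 0.05 and a 1.5-fold change. A gene is given by 1 representative probe, with names from the array file of naïve replicate 1. Where a group had no array above background, a fold is a lower bound, the dim group being set on each array to the higher of its own value and the lowest signal above background. Named genes are the 12 largest rises and 10 largest falls among genes called without overlap, 6 and 4 more from or to a group below background, up to 4 called members of each gene list in each direction, and 22 genes of the pathway. Further list members, such as Ifit1, Gbp3 and Mlkl, were chosen after their values were seen. A few of these genes are not reported here. The members, the gene lists and the naming rule were chosen with earlier results of these data known. The alternative without slide 3 was chosen after seeing the data and is not part of the ranges given over all alternatives. The steps were tested on simulated data.

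Replicate numbers come from the sample titles, and each number was also 1 slide. Deviations of same-numbered naïve and Poly(I:C) arrays from their group means correlated at 0.357, 0.406 and 0.421 over 28424 probes, so the numbers were taken to pair the samples. The main fit leaves this pairing out, so its calls, ± values and adjusted p treat the arrays as unpaired. A fit with the number as a block is given where it changes the call of a named gene or a list's count. The study describes a replicate at one place as 1 mouse and at another as a pool of several mice. If the cultures share mice, the p-values measure only the spread between these samples. No 2 arrays were duplicates (largest correlation 0.990). Promoters are RefSeq sequences of GRCm38.p6, and 423 of 613 genes called higher and 337 of 458 called lower were matched by symbol.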

Additional observations from a re-analysis of the deposited data

Results flagged for a closer look

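Genes whose response to Poly(I:C) and to CpG differed in the limma contrast of both ligands on the same slides included Il12b (Poly(I:C) minus CpG −4.44 log2 units, adjusted p = 0.0132), Ptgs2 (−5.48, 0.0138), Il1b (−7.19, 0.0384) and Nlrp3 (−2.16, 0.0483), each higher on all 3 CpG arrays than on all 3 Poly(I:C) arrays. With the replicate number as a block none of the 4 was called.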

How the results depend on the processing

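The counts depended on the model and on slide 3. Against naïve BMDM, 1713 probes were called (1080 higher, 633 lower). Remade values gave 1717 calls, 2083 were made with detection on all 3 arrays of either group, and normexp background correction gave 2502 (1370 higher, 1132 lower). With the replicate block, which also stands for the slide, 1266 were called (902 higher, 364 lower), of which 931 were shared with the unblocked fit. Median scaling gave 1435 (1318 higher, 117 lower), with 1 spread common to all probes. With no detection filter 716 were called (588 higher, 128 lower), with the slide as a random block 4267 (2156 and 2111), in 1 fit of all 9 groups 4202 (2178 and 2024), with array quality weights 7100 (2964 and 4136), and with slide 3 left out in both groups 5885 (2544 and 3341). With each array left out in turn the count ran from 169 to 2683, the rises from 156 to 1471 and the falls from 13 to 1316. It was 338 without naïve replicate 1, 363 without naïve replicate 2, 200 and 169 without Poly(I:C) replicates 1 and 2, and 2683 and 2606 without naïve and Poly(I:C) replicate 3. The cause was not tested.

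Poly(I:C) against CpG gave 46 calls (23 higher, 23 lower), 33 with normexp (6 higher, 27 lower), 245 with median scaling (165 and 80), 2 with no detection filter (0 and 2), 88 with detection on all 3 arrays (49 and 39), 0 with the replicate block, 837 with the slide as a random block (469 and 368), 1344 in 1 fit of all 9 groups (820 and 524), 3851 with array weights (2024 and 1827) and 1662 without slide 3 (1063 and 599). Over the arrays left out it ran from 0 to 826, with 0 to 575 higher and 0 to 251 lower; it was 826 without CpG replicate 3 and 503 without Poly(I:C) replicate 3. No call of a named gene in this contrast held with the block.

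Of 97 named genes 85 were called, 51 of them in all 9 settings that keep every array and 28 also with each array left out. Not every lost call is named gene by gene above. The replicate block lost 28 calls, and the arrays left out lost 45 and 41 (naïve replicates 1 and 2), 3 (naïve replicate 3), 53 and 57 (Poly(I:C) replicates 1 and 2) and 10 (Poly(I:C) replicate 3). Leaving out slide 3 in both groups lost 0 of these calls. The median change of the dendritic cell markers, 0.91, turned to −0.10 without naïve replicate 3 and to −0.06 without Poly(I:C) replicate 2 (range −0.10 to 2.10 over the arrays left out). Probes below background on both sides have no fold here.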
